A study of Mus musculus with 2 samples.

Results

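The genes described here are the nuclear genes of the last steps of mitochondrial respiration, complex III, complex IV and the ATP synthase, in B-ALL (B-cell acute lymphoblastic leukaemia) cells of the mouse. They comprise 42 genes chosen by name: 9 subunits of complex III, cytochrome c, 10 subunits of complex IV, 6 assembly factors of complex IV, 15 subunits of the ATP synthase and its inhibitor. Probes were assigned through the RefSeq accession that each carries. Of the 42 genes, 39 had at least 1 probe well above background on both arrays, as did 51% of all 20618 named genes, or 10517. Cox10 and Cox17 passed that limit on the SoNar-high array alone, and the single spot of Atp5o was marked as non-uniform on the SoNar-high array and left out.

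The leukaemic cells were sorted from bone marrow by the ratio of fluorescence excited at 405 and at 488 nm of SoNar, a genetically encoded sensor of the cytosolic NADH to NAD+ ratio, into a SoNar-high and a SoNar-low population. Each population was measured on 1 Agilent 1-colour array labelled with Cy3. Both groups came from C57BL mice of 8 weeks, and their titles, N-myc-high and N-myc-low, differ from their source names in a way the labels do not explain. How the leukaemia and the sensor were introduced, and how many animals gave each RNA sample, is not given in the sources used here. With 1 array per group there is no replicate check, the groups were not tested against each other, and precision is limited by there being so few arrays. The arrays were scanned in separate sessions, so scan session and group cannot be told apart.

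In the respiratory chain, complex III (ubiquinol-cytochrome c reductase) passes electrons from ubiquinol to cytochrome c, and complex IV (cytochrome c oxidase) passes them on to oxygen. Both pump protons out of the mitochondrial matrix, and the ATP synthase lets the protons return while it makes ATP. Complex IV carries haem A and copper in its catalytic core, and a set of assembly factors makes and delivers these cofactors. Electrons from cytosolic NADH reach this chain through shuttles, so respiration is one of the routes by which a cell keeps its NADH low.

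Of 43020 non-control spots per array, the SoNar-high array detected 72.9% and the SoNar-low array 44.8%, detection meaning a signal well above background. No spot reached saturation. Detected signals began at 19.7 (SoNar-high) and 46.4 (SoNar-low). Of 9 B lineage markers, 7 were measured on both arrays, among them Cd79a and Cd79b, while Igll1 and Rag1 were not well above background on either. Of the 7 measured, 2 had differences above 0 and 5 below, with a median of -0.26. Markers of other cell types differed between the arrays. The summed unscaled signal of the neutrophil probes was 26980 for SoNar-high and 19553 for SoNar-low, with 14 of 14 and 12 of 14 probes detected. Of 11 neutrophil markers measured on both arrays, 9 had differences above 0 and 2 below, S100a9 (-0.15) and Prtn3 (-0.32). For T cell probes the sums were 1418 and 486, with 6 and 3 of 8 detected, and for erythroid probes 22296 and 28608, with 12 and 7 of 13 detected. The erythroid sum followed 1 bright probe, that of Hemgn (-0.83), while the other 4 erythroid markers measured on both arrays had differences above 0. All 3 T cell markers measured on both arrays were above 0, with a median difference of 1.26. Of these, Cd4 was the brightest on both arrays and made the largest part of the T cell sums. Cd3g and Cd8a were found by the SoNar-high array alone and Cd3d by neither. The part of these other cells in the values below was not tested, and in such bulk samples fewer cells of a type and less RNA per cell cannot be told apart.

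None of the 39 measured genes differed 2-fold between the arrays, where 6.55% of all measured genes did (4.87% higher and 1.68% lower on the SoNar-high array). The subunits' probes were mostly bright, and in the brightest of 5 bins with equal numbers of genes, which held 29 of the 33 measured subunits, 2.23% of genes differed 2-fold. Levels are log2 signals minus the 75th percentile of their array, and differences are SoNar-high minus SoNar-low on that scale. The median difference was -0.22 over the 33 measured subunits and 0.22 over the 4 measured assembly factors, against -0.17 over all genes. Of the 39 genes, 11 had a difference above 0 and 28 below, while 36.8% of all genes were above 0. Relative to the median of all genes, 15 lay above it and 24 below. Of the 39, 34 lay within 0.58 of that median, which was the median span between the lowest and highest probe of the same respiratory gene, as did 76.4% of all genes. The signs depend on the scaling. Scaling each array to its median lowers all differences by the same amount and takes the median of all genes to -0.78. Of the 39 genes 38 were then below 0 and 15 were at least 2-fold lower, beside 32.8% of all genes called either way in that scaling. With the 75th percentile over doubly detected spots, those well above background on both arrays, the median of all genes was 0.046, and 18 of the 39 genes were above 0 and 21 below. Against the median of all genes, the split of 15 above and 24 below turned to 23 above and 16 below under quantile normalization.

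**Figure D1:**
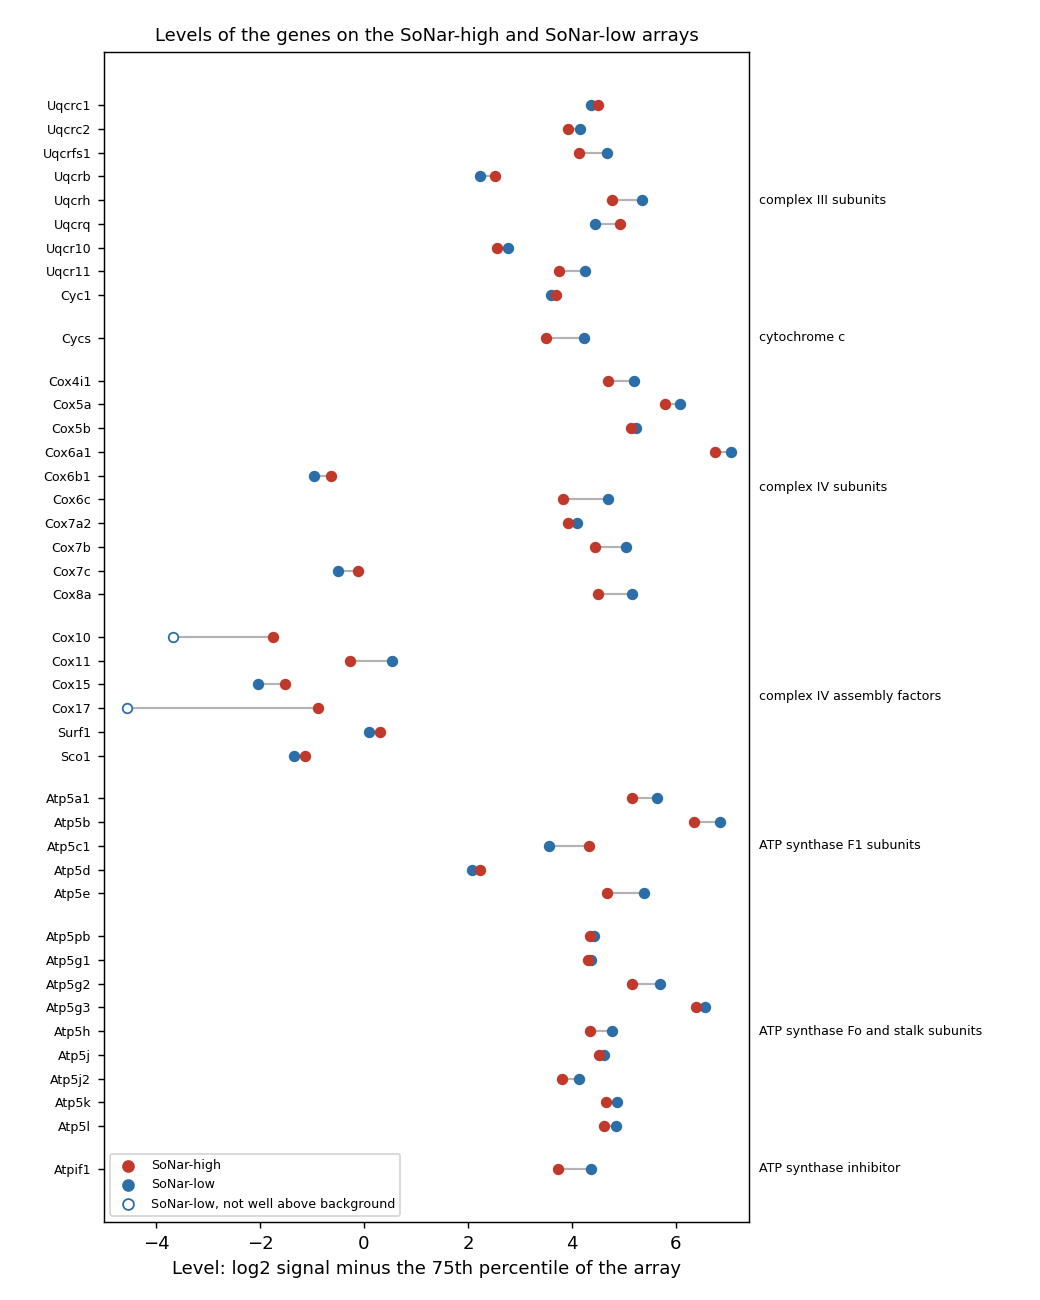
Level of each gene on the SoNar-high (red) and SoNar-low (blue) array, as log2 signal minus the array's 75th percentile, grouped by role; open circles were not well above background, and a gene with several probes is shown at their mean, except Cox17, shown at its brighter probe. The horizontal gap is the difference between the arrays. Levels of different genes come from different probes and do not rank their RNA amounts.

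Complex III was measured for all 9 subunits, with a median difference of -0.22, of which 4 were above 0 and 5 below. The highest was Uqcrq, a small subunit, with a signal of 15964 on the SoNar-high and 10288 on the SoNar-low array and a log2 difference of 0.49 ± 0.20. The error given with single genes is the scanner software's estimate for the spots, combined over a gene's probes. It is a technical error that leaves out any difference between cell samples and any disagreement between probes. The only spot of a second Uqcrq probe was marked as an outlier, and with outlier spots kept the mean of both probes was 1.05. Uqcrb followed at 0.29 ± 0.12 over 3 probes, whose differences ran from -0.38 to 0.96. The lowest were Uqcrh, the hinge protein, at -0.56 ± 0.14 over 2 probes, and Uqcrfs1, the Rieske iron-sulfur protein that takes electrons from ubiquinol, with signals of 9212 and 12041 and a difference of -0.53 ± 0.20.

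Cyc1 and both core proteins of complex III lay between these ends. Cyc1, the cytochrome c1 that hands electrons to cytochrome c, had signals of 6794 and 5752 and a difference of 0.095. The core protein Uqcrc1 had signals of 11873 and 9838 and a difference of 0.13, and its partner Uqcrc2 had signals of 8006 and 8551 and a difference of -0.22. Uqcrc2 was spotted 10 times on each array, and its difference had an SD of 0.24 over these spots. This is the only gene of the set that was measured by repeat spots of 1 probe. Over 193 repeated probes of the arrays, the median SD of the difference between spots was 0.15. Uqcr10 and Uqcr11, both small subunits, were at -0.22 and -0.49. Cytochrome c itself, Cycs, was lower on the SoNar-high array on both of its detected probes, with signals of 3246 and 4003 on one and 10735 and 19947 on the other, and its mean difference was -0.74 ± 0.14. On its brightest probe alone the difference was -1.04, and a further probe was not well above background on either array.

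In complex IV the 10 subunits had a median difference of -0.30, with 2 above 0 and 8 below. The lowest was Cox6c, with signals of 7403 on the SoNar-high and 12229 on the SoNar-low array and a difference of -0.87 ± 0.20, the lowest of all 39 genes. Cox8a followed at -0.64 ± 0.14, its probes being at -0.93 and -0.35. Cox7b was at -0.60 with signals of 11426 and 15707, and Cox4i1, the subunit through which ATP is known to inhibit the enzyme, at -0.51 with signals of 13504 and 17359. Cox5a (-0.30), Cox6a1 (-0.29), Cox7a2 (-0.18) and Cox5b (-0.10) lay nearer to the median of all genes. All 8 had the higher level on the SoNar-low array in this scaling and with median scaling, but only 6 with the percentile over doubly detected spots.

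The subunits of complex IV with differences above 0 were measured by probes dimmer than those of its other subunits. Cox6b1, which links the monomers of the enzyme, had signals of 338 and 245 and a difference of 0.32 ± 0.22. Cox7c had a mean difference of 0.39, but its brighter probe, with signals of 947 and 1047, was at -0.29 and its dimmer probe, with signals of 251 and 108, at 1.07. These 2 probes carry the same RefSeq accession but differed in sign, so their mean describes neither. Another Cox7c probe was left out because its spot was marked as an outlier. With outlier spots kept, the mean over 3 probes was 0.17, so the added probe lay below the mean of 0.39.

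The assembly factors of complex IV divided between 5 genes with higher levels on the SoNar-high array and 1 with a lower level, Sco1, Surf1 and Cox15 among the 5 being below 0 with median scaling, and Sco1 also under quantile normalization (-0.043) and in the authors' value table (-0.072). Cox17, the copper chaperone of the intermembrane space that supplies Sco1 and Cox11, had a signal of 284 in SoNar-high and of 20.1, not well above background, in SoNar-low. A bound put it at least 5.55-fold higher on the SoNar-high array. This bound sets its level there against the lowest detected level on the SoNar-low array, -3.36. Such bounds are approximate, because a probe can be undetected above that level, as that of Taco1 was at -3.01. Of 1060 named probes within 0.25 of the SoNar-high level of Cox17, 1.89% were not detected on the SoNar-low array. The second Cox17 probe, at 40.5 and 9.94, was likewise undetected on the SoNar-low array, but it lay under the lowest level detected on the SoNar-low array and gives no bound. Cox10, the haem O synthase that makes the precursor of haem A, had signals of 156 and 37.3 and was at least 3.04-fold higher by the same kind of bound. Near its SoNar-high level, 12.6% of 1155 named probes were not detected on the SoNar-low array. Among all named genes, 26.5% were detected by the SoNar-high array alone and 0.0534% by the SoNar-low array alone. Of the former, 6.71% had a bound of 2-fold or more. Under the other scalings and backgrounds tried, the bound ran from 2.51-fold with normexp (a model-based background correction) to 6.43-fold for Cox17. For Cox10 it ran from 1.81-fold with normexp to 3.52-fold, and it was also under 2-fold, at 1.99-fold, with median scaling.

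The other assembly factors were detected on both arrays. Cox11, which inserts copper into the Cox1 subunit, went the other way, with signals of 434 and 692 and a difference of -0.82 ± 0.21. Sco1, which carries copper to the Cox2 subunit, had a mean difference of 0.22, with probes at 0.073 and 0.36. The copper factors thus included both the gene with the largest bound and the lowest of the 4 assembly factors of the set measured on both arrays. On the haem side, Cox15, which turns haem O into haem A, had signals of 290 and 217 on one probe and 117 and 61.4 on the other, and its mean difference of 0.53 ± 0.20 was the highest of the 4 measured assembly factors. Surf1, which acts in the insertion of haem A and is mutated in Leigh syndrome, had signals of 650 and 505 and a difference of 0.22 ± 0.21.

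The gap between assembly factors and subunits moved with signal level. The median of the 4 measured assembly factors exceeded that of the 33 subunits by 0.44, and 5 of the 33 subunits lay above the assembly factors' median. The assembly factors had mean levels from -1.78 (Cox15) to 0.20 (Surf1), however, whereas most subunits were in the brightest bin. Over all genes the median difference was 0.097 in the dimmest bin and -0.34 in the brightest, which spans mean levels of 2.44 to 8.08. Measured against the running median of the 501 genes nearest in level, the subunits had a median of 0.13 and the assembly factors one of 0.30, and the gap was 0.17. On this scale the subunit median thus lay above genes of like level, the opposite of its place against all genes. Of the 33 subunits 11 lay above the assembly factors' median on this scale.

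**Figure D2:**
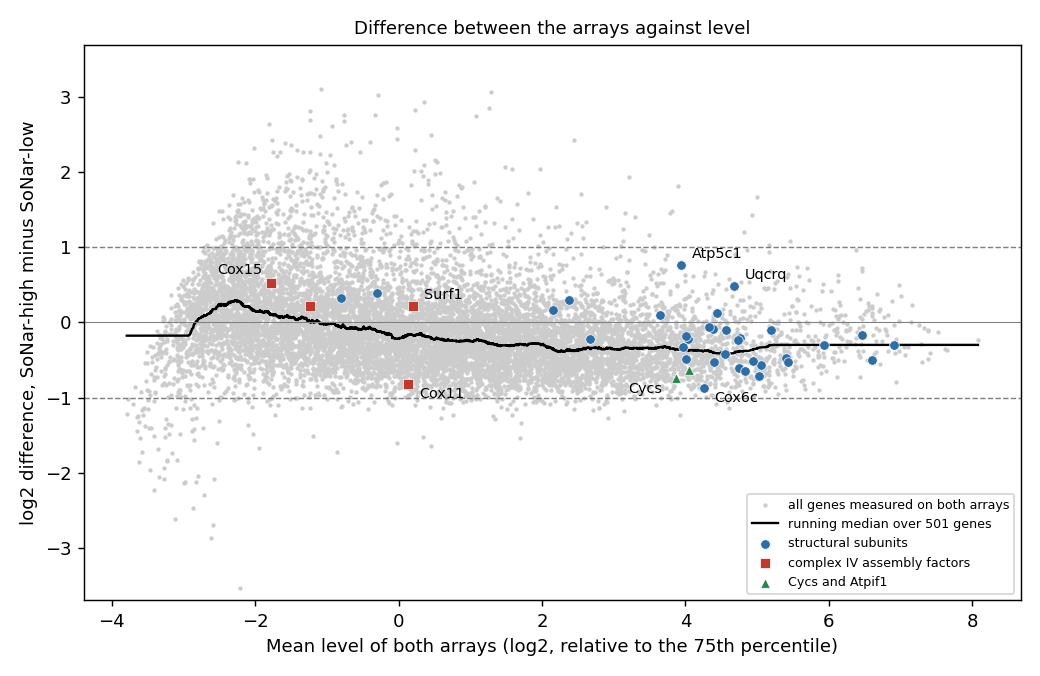
The log2 difference between the arrays, SoNar-high minus SoNar-low, for every measured gene against its mean level on both arrays, with the running median over 501 genes as a line and dashed lines at 2-fold. The subunits (blue circles) sit mostly among bright genes, where the line runs below 0, and the 4 measured assembly factors (red squares) among dimmer genes, where it runs nearer to 0.

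The ATP synthase was measured for 14 of its 15 subunits, with a median difference of -0.22, of which 2 were above 0 and 12 below. In the catalytic F1 head, Atp5b, the beta subunit that forms ATP, had signals of 42699 on the SoNar-high and 54724 on the SoNar-low array and a difference of -0.50 ± 0.20. The alpha subunit gene Atp5a1 had signals of 18792 and 23566 and a difference of -0.47. The lowest of the head was Atp5e, the epsilon subunit, with signals of 13432 and 19850 and a difference of -0.71. Atp5d, the delta subunit, was at 0.16 with signals of 2460 and 1992. The highest mean difference of all 39 genes was that of Atp5c1, the gamma subunit that turns inside the head, at 0.77. Its probes disagreed, however: one had signals of 9996 and 2673 and a difference of 1.76, and the other had signals of 11011 and 11651 and a difference of -0.23. The probe at -0.23 lay between Atp5d and Atp5a1. The probes differed in brightness mainly on the SoNar-low array, which is one side of the difference. Which of the probes reports the gene's RNA cannot be told from the arrays.

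All 9 measured subunits of the membrane part (Fo) and the stalks had differences below 0, from -0.53 to -0.054, with a median of -0.21, but 5 of the 9 were above 0 with the percentile over doubly detected spots and 2 under quantile normalization. The c subunits of the proton-carrying ring are encoded by 3 genes whose mature proteins are identical and whose import sequences differ. Atp5g1 had signals of 10397 and 9763 and a difference of -0.054, and Atp5g3 had signals of 43800 and 44571 and a difference of -0.17. Atp5g2 was lower on the SoNar-high array on both probes, with signals of 21736 and 26813 on one and 16242 and 22540 on the other, and a mean difference of -0.53 ± 0.14. Relative to genes of like level, Atp5g1 and Atp5g3 were at 0.33 and 0.13 and Atp5g2 was at -0.23. In the stalks, Atp5pb, the b subunit, was at -0.081, Atp5h, the d subunit, at -0.42, and Atp5j, coupling factor 6, at -0.11. The small subunits Atp5j2, Atp5k and Atp5l were at -0.33, -0.21 and -0.23.

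Atp5l had 5 probes, which ranged from -0.84 to 0.73. Atp5o, the oligomycin sensitivity conferring protein that joins the stalk to the head, had only the spot marked as non-uniform, with signals of 4844 and 2033. With that spot kept, its difference was 1.11, opposite in sign to the median of the other ATP synthase subunits. Atpif1, the inhibitor that stops the enzyme from running backwards, had signals of 6972 and 9750 and a difference of -0.63 ± 0.20.

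**Figure D3:**
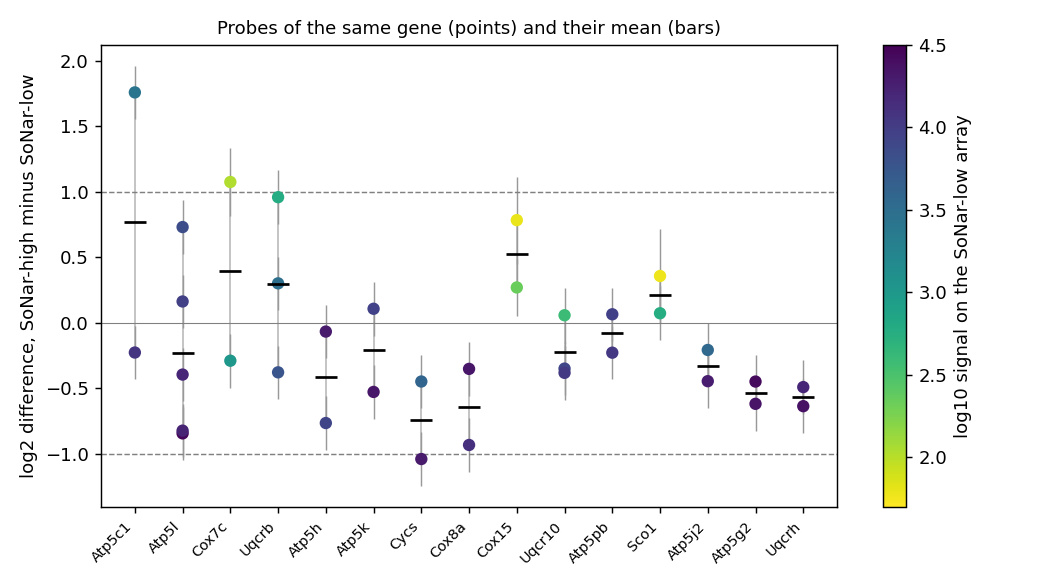
The log2 difference of each probe detected on both arrays, for the 15 genes of the set with several such probes; whiskers are the scanner software's error, colour is the signal on the SoNar-low array and black bars are the gene means. For Atp5c1, Atp5l, Cox7c and Uqcrb the probes of 1 gene span more than 1 on the log2 scale.

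Probes of the same gene disagreed in sign for 7 of the 15 genes with several probes, and their median span was 0.58. Over all 2394 genes with several measured probes, 48.9% disagreed in sign and the median span was 0.47. In 12 of the 15 genes the probe dimmest on the SoNar-low array gave the highest difference. That array is also one side of the difference, so this order is not independent of it. The 24 genes with a single probe have no such check. Single probes passed 2-fold in 3 of 59 cases, against 6.91% of all named probes measured on both arrays. They were those of Atp5c1 and Cox7c upwards and the brighter one of Cycs downwards.

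The wider machinery around these complexes was described from 37 further genes, of which 28 were measured on both arrays. Their median difference was -0.19, with 8 above 0 and 20 below, and 1 was at least 2-fold higher, against 4.87% of all genes. That gene was Cox4i2, the isoform of Cox4 known from lung and from hypoxic cells, with signals of 456 on the SoNar-high and 85.7 on the SoNar-low array and a difference of 2.27 ± 0.29. It was at least 2-fold higher under each scaling and background correction tried, the lowest difference being 1.44 with normexp. Other tissue isoforms of complex IV subunits were at -0.44 (Cox6b2) and 0.14 (Cox7a1). Cox6a2 and Cox8b were detected by the SoNar-high array alone, and Cox7b2 and Cox8c were not well above background on either.

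Among 13 measured further assembly factors of complex IV, the median difference was -0.17, near that of all genes. It was below that of the 4 measured assembly factors of the set, which were dimmer (median mean level -0.55 against 1.12). Relative to genes of like level, the medians were 0.067 for the further factors and 0.30 for those 4. The lowest were Cox14, at -0.87 with signals of 2240 and 3707, and Coa3, at -0.70 with signals of 897 and 1317, which both act in the making of the Cox1 subunit. The highest was Cox20, a chaperone of the Cox2 subunit, at 0.44 with signals of 750 and 499. Lrpprc, which stabilises mitochondrial messenger RNA, was at -0.59. Sco2, the copper carrier related to Sco1, was at 0.054, and Cox16 was at 0.28 with probes at -0.56 and 1.12. Pet100 and Pet117 had no probe by accession, and Taco1 was found by the SoNar-high array alone.

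For complex III the 5 measured assembly factors ran from -0.37 (Uqcc2) to -0.0033 (Uqcc1), and Lyrm7, which serves the Rieske protein, was found by the SoNar-high array alone. Among 5 measured factors of the ATP synthase, Tmem70, which serves the assembly of the c ring, was the lowest at -0.70 with signals of 729 and 1070, and Dmac2l the highest at 0.58 with signals of 125 and 75.7. Atpaf1, the chaperone of the beta subunit, was not well above background on either array. Cox7a2l, which joins complexes III and IV into supercomplexes, was at -0.69, and its 3 probes were close together, from -0.71 to -0.66. Hccs, which attaches haem to cytochrome c and c1, was at -0.20.

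**Figure D4:**
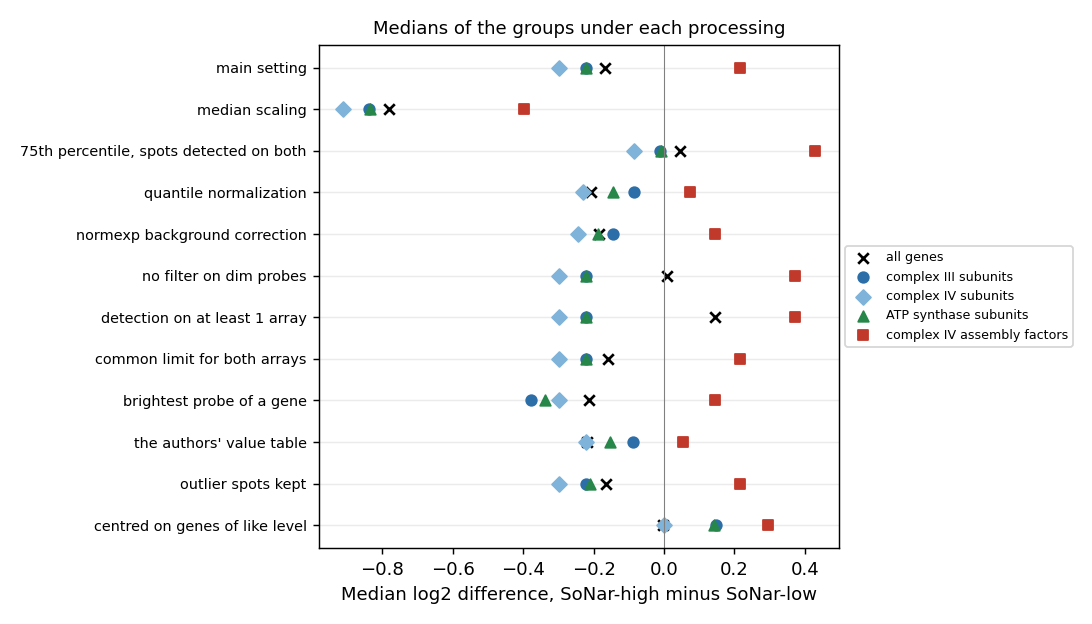
Median log2 difference of the subunits of complexes III and IV and of the ATP synthase, of the measured complex IV assembly factors and of all genes, under the main setting and each alternative processing. The assembly factors' median is the rightmost in every setting shown, while its distance from the subunits' medians varies. Median scaling and the percentile over doubly detected spots move all groups by the same amount.

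Promoters of the set were examined because nuclear respiratory genes are known to share sites for the factor NRF1 and for ETS factors such as GABP. RefSeq promoter windows of 300 bases, from 250 before to 50 after the annotated start (GRCm38.p6), were matched by symbol for 34 of the 42 genes, which gave 37 windows. The NRF1 core (GCGC, any base, then TGCGC), read on both strands, was present in 9 of these 37 windows (24.3%) and in 4.60% of all 32851 windows. The ETS core CCGGAAG, also read on both strands and counted whether or not it overlapped another motif, was present in 14 (37.8%) and in 8.86% of all. Of 4 further motifs searched in the same way, AAGATGGC of YY1 was present in 10.8% against 2.75%, CCAAT in 45.9% against 37.4%, the GC box GGGCGG in 37.8% against 35.7% and TATAAA in 5.41% against 13.6%. The GC content of the windows was not matched in these shares. The 18 measured genes with an NRF1 or ETS core had a median difference of -0.22, and the 14 with neither one of -0.26. A match is a run of letters and does not show that a factor was bound.

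The 150 bases before the start are shown for 5 of these genes, 5′ to 3′ on the gene's strand, with the NRF1 and ETS matches in capitals and matches to the other 4 motifs left in lower case. Cox10 and Sco1 are the assembly factors with an ETS match before the start. Atp5h and Cox6a1 hold both motifs, and Atp5g2, the lowest of the measured Fo and stalk subunits, holds an NRF1 match.
Cox10 (chr11:64079473-64079622, minus strand): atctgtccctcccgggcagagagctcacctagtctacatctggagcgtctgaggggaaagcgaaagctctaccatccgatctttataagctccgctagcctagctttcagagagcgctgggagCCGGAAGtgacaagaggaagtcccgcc
Sco1 (chr11:67052520-67052669, plus strand): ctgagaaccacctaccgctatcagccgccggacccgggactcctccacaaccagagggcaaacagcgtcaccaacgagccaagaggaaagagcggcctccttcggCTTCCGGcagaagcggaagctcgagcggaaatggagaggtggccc
Atp5h (chr11:115419920-115420069, minus strand): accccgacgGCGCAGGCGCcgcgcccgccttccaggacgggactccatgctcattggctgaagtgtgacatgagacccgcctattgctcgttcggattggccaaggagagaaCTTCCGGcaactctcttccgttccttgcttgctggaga
Cox6a1 (chr5:115348959-115349108, minus strand): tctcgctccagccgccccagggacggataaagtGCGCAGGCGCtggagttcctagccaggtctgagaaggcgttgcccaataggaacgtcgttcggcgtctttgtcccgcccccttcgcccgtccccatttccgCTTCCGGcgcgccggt
Atp5g2 (chr15:102671048-102671197, minus strand): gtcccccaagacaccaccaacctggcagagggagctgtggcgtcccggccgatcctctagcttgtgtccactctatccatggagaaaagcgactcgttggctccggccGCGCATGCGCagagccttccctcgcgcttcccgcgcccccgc
In Cox10 the ETS core began 27 bases before the start, and in Sco1 its reverse complement began 45 bases before it. In Atp5h and Cox6a1 the ETS core began 38 and 16 bases before the start and the NRF1 core 141 and 117 bases before it, all as reverse complements. A further NRF1 match of Cox6a1 began 162 bases before the start, outside the bases shown. In Atp5g2 the NRF1 core began 42 bases before the start. These 5 genes did not share a direction: Cox10 was higher on the SoNar-high array by its bound, Sco1 was at 0.22, and Atp5h, Cox6a1 and Atp5g2 were at -0.42, -0.29 and -0.53.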

How the data were processed

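Signals were taken as deposited: linear spot intensity, with background subtraction and detrending already done per the file headers. The extraction software was Agilent Feature Extraction, of which the headers give version 11.0.1.1 and the submitters' processing notes 9.1. The authors' log2 value table, whose columns both have a median of 5.90 and whose further steps were not stated, served as an alternative. Direction and scale follow from its correlation with log2 signal (r = 0.995 and 0.994). The deposited flags for detection, non-uniform and outlier spots (other values, 0 or 1, per the file headers) were used as given.

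The main level was log2 of the processed signal minus the 75th percentile of all non-control spots on that array. Of all spots 685 marked as outliers on either array were left out. Spots of a probe were averaged, 27115 of 39085 probes were named through RefSeq accessions, and a gene was the mean of its probes well above background on both arrays. A gene was called at an absolute log2 difference of 1 or more, with no p-value. The errors combine the software's signal errors of the spots. The genes, the lists and the naming rule were chosen with earlier results of these data known. The rule took all 42 genes by role. Full values were due for the 2 highest and 2 lowest of each role, genes called or detected on 1 array, and the Atp5g genes. It also covered genes with probes more than 0.5 from 0 on both sides, and the called, highest and lowest genes of the further lists. Signals of Uqcrb, Uqcrh, Cox8a, Sco1, Atp5h, Atp5pb and Atp5l fall under the rule but were left out. The same holds for Cox6b2, Uqcc1, Uqcc2, Hccs and Cox7a2l of the further lists. Coa3, Lrpprc, Sco2, Cox16, Cox7a1 and the genes listed as undetected fall outside the rule and were named after their values were seen. The calculations were tested on simulated data. Python 3.11.15, numpy 2.4.6, pandas 2.3.3, R 4.3.3 and limma 3.58.1 were used. Alternatives covered scaling, background, the filter, the probe rule and the authors' table. No genome of the files' mm9 build was used, so the coordinates given are those of the GRCm38.p6 promoter table.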

Additional observations from a re-analysis of the deposited data

How the results depend on the processing

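No paired analysis was possible because there was only 1 array per group, which also meant that none could be left out. Keeping outlier spots, centring on genes of like level, and the gap between assembly factors and subunits were chosen after the data were seen. Against 0 genes of the set at least 2-fold different, the count was 15 with median scaling, all lower, 2 with no filter and 2 with detection on at least 1 array (Cox10 and Cox17), 1 with the brightest probe (Cycs), 2 with outlier spots kept (Uqcrq and Atp5o) and 1 after centring on genes of like level (Atp5c1). The shares of all genes called in these settings were 32.8%, 22.0%, 21.1%, 7.10%, 6.85% and 6.43%. The subunit median of -0.22 was -0.84 with median scaling, -0.011 with the percentile over doubly detected spots and 0.13 after centring on genes of like level. The assembly factor median of 0.22 was -0.40 and 0.43 in the first 2 of these settings, 0.37 with no filter and with detection on at least 1 array, which add Cox10 and Cox17 by construction, 0.073 under quantile normalization and 0.055 in the authors' value table. The gap of 0.44 was 0.21 in the authors' value table, 0.22 with quantile normalization, 0.60 with no filter and with detection on at least 1 array, and 0.17 after centring, and it cannot move under the settings that shift all genes alike. For quantile normalization, the authors' table and the brightest probe the cause was not tested. The same 39 genes were measurable with 1 common limit for both arrays. Of all genes called, the share that was higher in SoNar-high was 74.3% as reported, 52.4% under quantile normalization, 45.4% in the value table, 92.3% with the percentile over doubly detected spots and 4.03% with median scaling. Signal over background limits Cox10, Cox17, Cox4i2 and the dim probes of Cox7c, Cox15, Cox16 and Sco1, among others.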
